A study of Mus musculus with 11 samples.

Results

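Integrins and laminins were described across the stromal vascular cells of mouse perigonadal white adipose tissue (pgWAT), the visceral fat around the gonads. The members are the protein-coding genes named as an integrin alpha or beta subunit or as a laminin alpha, beta or gamma chain. The GENCODE vM21 annotation (GRCm38) holds 37 such genes, and 34 of the 23507 gene rows of the count table are members, 24 integrin subunits and 10 laminin chains. Itgad, Itgb6 and Lama1 were not analysed here.

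Single cells were profiled by Smart-seq2, a plate-based method that reads full-length transcripts without molecular identifiers. All mice carried the Pdgfrb-eGFP reporter transgene, in which the Pdgfrb promoter drives green fluorescent protein, on a C57BL6/J background. They were 12 to 20 weeks old. The 3261 cells came from 3 male mouse ids (1, 4 and 8) and 4 female mouse ids (2, 3, 5 and 6/7, the last holding 2 animals), on 11 plates. Plates were sorted for the PDGFRB reporter, for the endothelial antigen CD31, or for combinations of these with DPP4, so the share of each class follows the gates and was not compared. The authors state that a gate for cells without the leukocyte antigen CD45 came before these. Any macrophages described here are therefore only those that passed that gate. Each plate holds cells of 1 mouse id, so sex, mouse and plate cannot be told apart beyond the spread between mice. By the labels, CD31 and PDGFRB gates were on separate plates in mice 1 and 2, and in part in mouse 6/7. DPP4-positive and DPP4-negative gates were on separate plates in mouse 2. Class differences in these mice, and subtype differences in mouse 2, thus cannot be fully told apart from plate and gate. Comparing sums within a mouse does not remove this. Mouse 5 had 1 plate, labelled for the PDGFRB reporter alone, so its endothelial cells and macrophages described here carry that gate label.

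Integrins are receptors made of 1 alpha and 1 beta subunit that hold cells to the extracellular matrix or to other cells. Laminins are trimers of 1 alpha, 1 beta and 1 gamma chain, and they form the sheet of the basement membrane to which endothelial cells, mural cells and adipocytes attach. The alpha subunit sets most of an integrin's ligand choice: alpha 1, 2, 10 and 11 bind collagens, alpha 3, 6 and 7 bind laminins, alpha 5, 8, V and IIb read the RGD motif of fibronectin, vitronectin and other ligands, and the subunits that pair with beta 2 serve leukocytes.

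Cells were clustered on genes other than the members and named from marker genes that hold no member. There were 2251 ASC-like cells (adipose stem cells, the fibroblasts of fat, from 7 mouse ids), 562 EC-like cells (blood endothelium, 5 mouse ids), 101 mural-like cells (60 pericyte-like and 41 VSMC-like, vascular smooth muscle) and 137 macrophage-like cells. The other 210 cells were lymphatic EC-like or unnamed. Reads in genes ranged from 141935 to 3526227 a cell, with a median of 616939. Counts were summed over the cells of a class in a mouse wherever at least 10 cells were present, which left 7 ASC-like, 5 EC-like, 2 mural-like (mice 1 and 2) and 2 macrophage-like sums (mice 1 and 5). Every one of the 5 ASC, 6 EC and 8 macrophage markers had reads in the sums of its own class. The same markers had named the clusters, so this is no separate support for the names. EC markers were also present in the mural-like sums, at 853 CPM (reads of a gene scaled to a common library total, as set out below) summed over the 6 markers in mouse 1 and 3609 in mouse 2, against 3438 to 7451 in EC-like and 2.82 to 22 in ASC-like sums. The mural-like sum of mouse 2 held 13 cells, all pericyte-like. The ASC markers reached 382 and 459 CPM in the mural-like sums, with 2 of the 5 at 0 in mouse 2, against 14074 to 48349 in ASC-like sums.

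Integrin RNA was abundant in every class, whereas laminin RNA was concentrated in ASC-like and vessel-wall cells. The integrin members summed to 329 to 861 CPM in ASC-like sums (median 512), 431 to 1182 in EC-like sums (median 513), 829 and 732 in mural-like sums and 438 and 516 in macrophage-like sums. The laminin members summed to 713 to 3038 CPM in ASC-like sums (median 1065), 223 to 621 in EC-like sums (median 308), 1038 and 338 in mural-like sums, and 14 and 14.1 in macrophage-like sums. The integrin totals of the classes overlapped, and the macrophage-like laminin totals lay far below those of every other sum. CPM here are relative to the reads in genes of a sum, scaled by the trimmed mean of M-values (TMM).

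**Figure D1:**
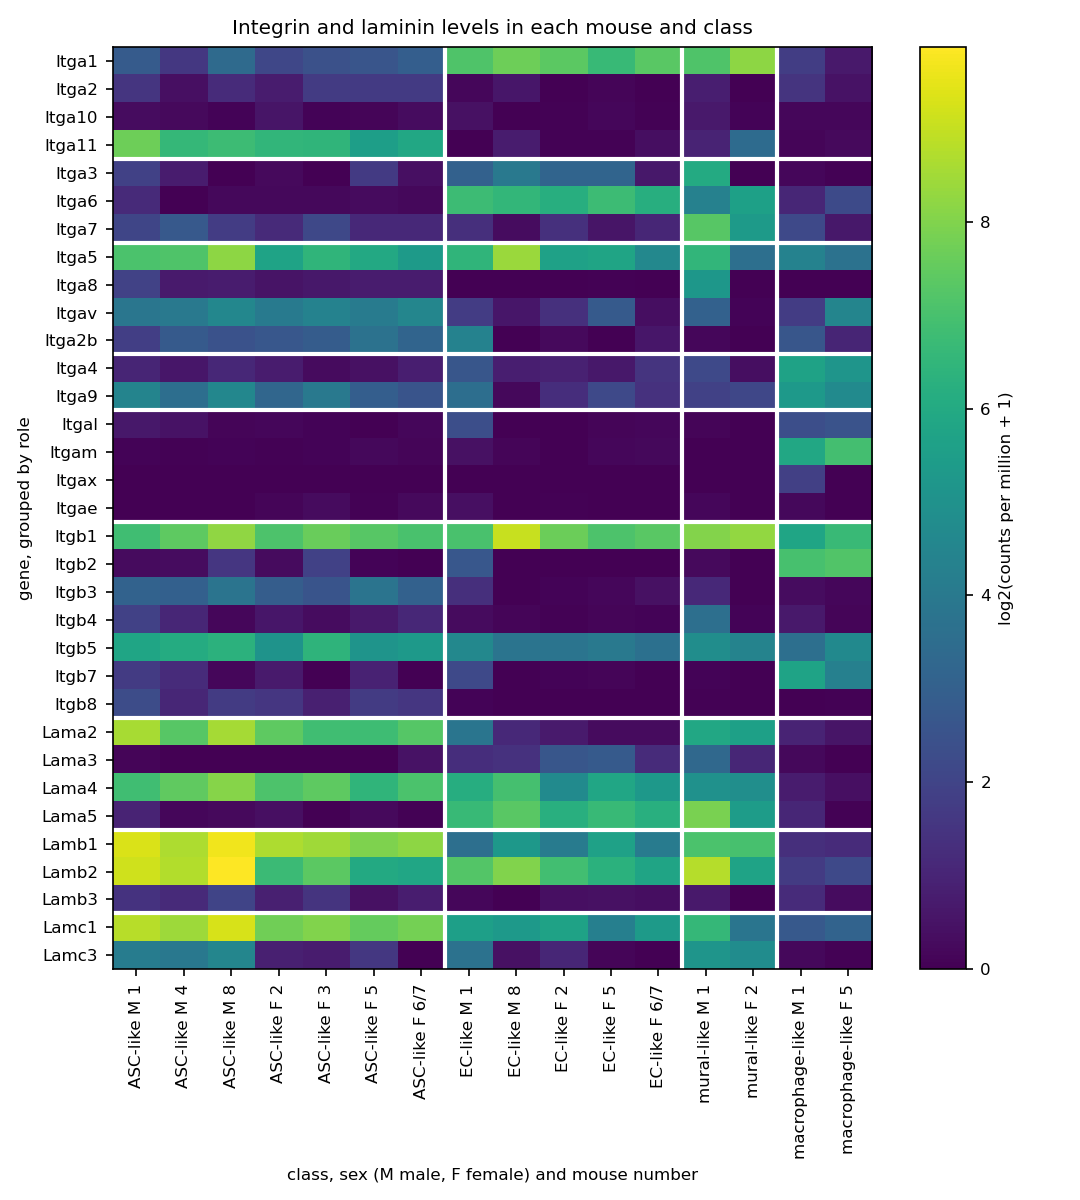
Levels of integrins and laminins (rows, grouped by role with white lines) in each of the 16 class sums (columns, 1 per mouse and class), as log2(CPM + 1). Itgb1 is bright in every column and Itga11 in the 7 ASC-like columns. Lama2 is bright in the ASC-like and, at lower levels, the mural-like columns. Lama5 and Itga6 are bright in the EC-like and mural-like columns, and Itgam and Itgb2 in the 2 macrophage-like columns.

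All 16 sums entered 1 edgeR quasi-likelihood fit with mouse as a block, in which 24 of the 34 members passed the filter of more than 600 reads in at least 2 sums. Calls required a fold change above 2.6 together with an adjusted p below 0.05. Between EC-like and ASC-like sums 3 members were higher and 8 lower, where 8.19% of the 12844 genes tested were called higher and 13.6% lower. Between mural-like and ASC-like sums 4 members were higher and 1 lower, against 4.31% and 3.82% of all genes. Between mural-like and EC-like sums 1 member was higher and none lower, against 2.05% and 0.226% of all genes, and 8 of the 24 members had an unadjusted p under 0.05, as did 13.8% of all genes. Between macrophage-like and ASC-like sums 2 members were higher and 10 lower, against 5.96% and 9.08%. The median log2 difference of the tested members was -1.37 for EC-like and -2.51 for macrophage-like against ASC-like sums, beside -0.19 over all genes in both comparisons. The 3 comparisons against ASC-like sums share those sums and are not independent. A member that passed the filter through the class where it is high was bound to differ. Among such members, Lama5 and Itga6 were above 600 reads in no ASC-like sum, and Itgam and Itga4 only in macrophage-like sums. Itga11 and Itgb3 were above it only in ASC-like sums. The counts above include these members, and their p values below are not separate support for a difference. The 10 members below the filter were Itga2, Itga8, Itga10, Itgae, Itgal, Itgax, Itgb4, Itgb8, Lama3 and Lamb3.

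Itgb1, the beta 1 subunit that partners most matrix-binding alpha subunits, had reads in most cells of every class. Its CPM was 113 to 299 in ASC-like sums (median 157), 129, 519, 201, 138 and 163 in the EC-like sums of mice 1, 8, 2, 5 and 6/7, 262 and 306 in mural-like sums and 55.3 and 103 in macrophage-like sums. The ASC-like and EC-like ranges overlapped, and the macrophage-like values were the lowest. After each cell was thinned to 140000 reads, 94.4% of ASC-like, 79.9% of EC-like, 97% of mural-like and 68.6% of macrophage-like cells had an Itgb1 read (98.3%, 89%, 98% and 86.1% before thinning, at median depths of 669455, 517938, 622186 and 661413 reads). The log2 difference between EC-like and ASC-like sums was 0.34 ± 0.21 (SE, adjusted p = 0.29). Mural-like sums exceeded ASC-like sums by 1.22 ± 0.30 with an adjusted p of 0.035, below the fold limit. Per kilobase of exon, Itgb1 stood first among the members in EC-like and mural-like sums (median RPKM, reads scaled by exon length and library total, 39.9 and 69.7) and second in ASC-like and macrophage-like sums (38.4 and 19.3).

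The other beta subunits divided by class. Itgb3, which pairs with alpha V and alpha IIb, was at 4.97 to 12.9 CPM in ASC-like sums (median 7.38), at 1.51, 0, 0.0642, 0.129 and 0.342 in EC-like sums of mice 1, 8, 2, 5 and 6/7, at 1.23 and 0 in mural-like and at 0.253 and 0.114 in macrophage-like sums. Every ASC-like value lay above every other value, and the EC-like sums were lower by 5.78 ± 1.20 on the log2 scale (adjusted p = 0.0062). Itgb5, another partner of alpha V, was lower in EC-like sums by 1.63 ± 0.35 (adjusted p = 0.0074), with medians of 13 CPM against 55.5. The leukocyte subunit Itgb2 was at 127 and 144 CPM in macrophage-like sums and at 0 to 2.73 in ASC-like sums, and it was the highest member in macrophage-like sums per kilobase (median RPKM 44.4). Its log2 difference of 8.74 ± 3.80 did not pass the test (adjusted p = 0.17). The EC-like sum of mouse 1 held 5.48 CPM of Itgb2, 51% of it from 1 of 177 cells, and the other 4 EC-like sums none. The 8 macrophage markers summed to 28 CPM in that EC-like sum and to between 6.02 and 33.1 in the other 4, and their part in the Itgb2 value was not tested. Itgb7 was at 51.6 and 18.8 CPM in macrophage-like sums (adjusted p = 0.091), and 99.7% of its reads in mouse 5 came from 1 cell.

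Of the collagen-binding alpha subunits, Itga11 and Itga1 were called in opposite directions. Itga11, the collagen receptor of fibroblasts, was at 45.5 to 203 CPM in ASC-like sums (median 89.4), at 0.0136 to 0.693 in EC-like sums, at 1 and 10 in mural-like sums and at 0.092 and 0.2 in macrophage-like sums. No ASC-like value overlapped another class. The log2 difference was -9.73 ± 1.23 for EC-like sums (adjusted p = 0.00039) and -8.83 ± 1.82 for macrophage-like sums (adjusted p = 0.011). The latter had an adjusted p of 0.051 without mouse 1 and 0.1 without mouse 5. The mural-like difference, -4.29 ± 1.48, did not pass (adjusted p = 0.12). Thinned to equal depth, 67.5% of ASC-like and 1.6% of EC-like cells had an Itga11 read (84.1% and 3.74% before thinning).

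Itga1, a receptor for collagen IV and laminin, was at 139, 205, 165, 99.6 and 162 CPM in the EC-like sums of mice 1, 8, 2, 5 and 6/7 and at 142 and 292 in mural-like sums. In ASC-like sums it was at 2.02 to 9.74 (median 5.02), and in macrophage-like sums at 2.51 and 0.6. Vessel-wall and other sums did not overlap, with log2 differences against ASC-like sums of 4.63 ± 0.41 for EC-like (adjusted p = 6.1e-05) and 5.16 ± 0.55 for mural-like sums (adjusted p = 0.00084). Itga1 overlaps the exons of Gm49395 over 685 bases on the same strand, so reads there can be split between them. Itga2 and Itga10 stayed at or under 2.31 CPM in all 16 sums.

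Among the laminin-binding alpha subunits, Itga6 was called higher than in ASC-like sums in EC-like and mural-like sums, and Itga7 in mural-like sums only. Itga6 was not called between mural-like and EC-like sums (log2 difference -1.51 ± 1.04, adjusted p = 0.58). Itga6 was at 106, 91.5, 71.1, 107 and 72.5 CPM in the EC-like sums of mice 1, 8, 2, 5 and 6/7, and at 0.0101 to 1.27 in ASC-like sums. The groups did not overlap (log2 difference 8.12 ± 0.88, adjusted p = 0.00017), and 50.2% of EC-like against 1.16% of ASC-like cells had a read after thinning (64.4% and 3.33% before). The mural-like sums held 19 and 47.4 CPM, a log2 difference of 6.61 ± 0.99 from ASC-like sums (adjusted p = 0.0048). That call was lost with each cell classed by its own markers (adjusted p = 0.078). It was also lost without mouse 2, which leaves 1 mural-like sum. The difference was -0.52 once mural-like cells with EC reads were left out, as described further on, which again leaves 1 mural-like sum. Itga7, the laminin receptor of muscle cells, was at 159 and 40.3 CPM in mural-like sums, at 0.26 to 1.61 in EC-like sums, at 1.21 to 5.74 in ASC-like sums and at 3.49 and 0.571 in macrophage-like sums. The mural-like values lay above every other value, by 4.93 ± 0.76 against ASC-like (adjusted p = 0.0052) and 5.84 ± 0.73 against EC-like sums (adjusted p = 0.0034), the only member called between the last pair. Without mouse 1 the adjusted p values were 0.14 and 0.16, with only the 2 classes in the fit 0.074 and 0.056, and with each cell classed by its own markers 0.2 and 0.11. Itga3 was at 64.7 CPM in the mural-like sum of mouse 1 and at 0 in that of mouse 2, and at 0.571 to 14.8 in EC-like sums, and no comparison of it was called.

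The RGD-binding subunits were called for Itgav and Itga5. Itgav, the alpha V subunit, was at 13.6 to 22.9 CPM in ASC-like sums (median 16.1) and at 2.33, 0.519, 1.58, 5.97 and 0.292 in EC-like sums of mice 1, 8, 2, 5 and 6/7. The ranges did not overlap (log2 difference -3.84 ± 1.14, adjusted p = 0.034), although the adjusted p was 0.11 without mouse 6/7 and 0.088 without mouse 8. Itga5, the fibronectin receptor, was at 41.1 to 292 CPM in ASC-like sums (median 87.4), 85.8, 336, 48.9, 53 and 23.1 in EC-like sums, 89.8 and 11.1 in mural-like and 19.9 and 12.2 in macrophage-like sums. ASC-like and EC-like values overlapped. The macrophage-like sums were lower by 2.64 ± 0.51 on the log2 scale (adjusted p = 0.0079), with an adjusted p of 0.064 without mouse 1, 0.091 without mouse 5 and 0.081 without the mouse block. Itga2b, the platelet subunit, was at 19.8 CPM in the EC-like sum of mouse 1 and at most 0.507 in the other 4, and 95.5% of its reads in mouse 1 came from 1 of 177 cells. Itga8 was at 36.1 CPM in the mural-like sum of mouse 1 and at 0 in that of mouse 2.

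Itgam and Itga4 were highest in the macrophage-like sums. Itgam, the CD11b subunit of the complement receptor, was at 58.9 and 121 CPM there and at 0 to 0.353 in the other 14 sums, with a log2 difference of 9.29 ± 0.96 from ASC-like sums (adjusted p = 0.00058). A read was present in 63.5% of macrophage-like, 1.2% of ASC-like and 1.96% of EC-like cells after thinning (71.5%, 3.95% and 5.87% before). Itga4, which binds VCAM1 and fibronectin, was at 51.1 and 34.6 CPM in macrophage-like and 0.232 to 1.12 in ASC-like sums (5.64 ± 0.98, adjusted p = 0.0048). Itga9 was at 38.2 and 25.6 CPM there, beside 4.96 to 22.8 in ASC-like sums, without a call (0.89 ± 1.16, adjusted p = 0.7), and 47.5% of its reads in mouse 1 came from 1 of 76 cells. The leukocyte subunit Itgal was at 4.21 and 4.71 CPM there and at 4.12 in the EC-like sum of mouse 1, with 90.7%, 79.4% and 93.4% of these reads from 1 cell each. Itgax was at 2.62 and 0, and Itgae did not exceed 0.325 in any sum. Without mouse 1 or mouse 5, which leaves 1 macrophage-like sum, Itgam and Itga4 no longer passed the filter and had no test. Itgam shares 3450 of its 5024 annotated exon bases with Gm49368, which has no row of its own in the table.

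Of the laminin alpha chains, Lama2 and Lama5 were called in opposite directions between EC-like and ASC-like sums. Lama2, an alpha chain of muscle basement membranes, was at 112 to 384 CPM in ASC-like sums (median 155). It was at 13.2, 1.21, 0.647, 0.215 and 0.216 in EC-like sums of mice 1, 8, 2, 5 and 6/7. The mural-like sums held 59.2 and 48.1 CPM and the macrophage-like sums 0.966 and 0.486. ASC-like sums were the highest without overlap, and in the EC-like sum of mouse 1 97.5% of the reads came from 1 cell. EC-like sums were lower by 7.52 ± 0.97 on the log2 scale (adjusted p = 0.00043) and macrophage-like sums by 8.71 ± 1.58 (adjusted p = 0.0058), the latter with an adjusted p of 0.056 without mouse 5. Lama5, the broadly used alpha chain of endothelial and smooth muscle basement membranes, ran the other way. It was at 101, 162, 74.3, 98.9 and 73.6 CPM in the EC-like sums and at 234 and 42.6 in mural-like sums, but at 0.00945 to 0.999 in ASC-like and 1.08 and 0.0286 in macrophage-like sums. The log2 differences from ASC-like sums were 8.87 ± 0.82 for EC-like (adjusted p = 7.7e-05) and 7.85 ± 0.91 for mural-like sums (adjusted p = 0.0014).

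Lama4, the alpha chain shared by vessel and adipocyte basement membranes, was found in 3 of the 4 classes. It was at 87.7 to 266 CPM in ASC-like sums (median 136), at 70.2, 122, 25.3, 56.7 and 37.3 in EC-like sums, at 30.5 and 28.4 in mural-like sums and at 0.667 and 0.314 in macrophage-like sums. The EC-like difference of -1.32 ± 0.31 had an adjusted p of 0.011 but lay below the fold limit. The mural-like difference of -2.08 ± 0.47 was called (adjusted p = 0.027) and lost without mouse 1 or mouse 2 (adjusted p of 0.14 and 0.13) and with each cell classed by its own markers (adjusted p = 0.22). The macrophage-like difference was -8.04 ± 0.65 (adjusted p = 0.00016). Lama3 was at 0 to 0.406 CPM in ASC-like sums and 1.33 to 5.89 in EC-like sums and was not tested. In the EC-like sums of mice 1, 8, 5 and 6/7, 84.3%, 100%, 100% and 76.2% of its reads came from 1 cell.

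Lamb1 and Lamc1 were highest in ASC-like sums. Lamb1 was at 251 to 802 CPM there (median 401), at 11.2, 37.1, 16.2, 49.3 and 16.2 in EC-like sums of mice 1, 8, 2, 5 and 6/7, at 133 and 125 in mural-like and at 1.54 and 1.31 in macrophage-like sums, so that the 4 classes formed separate ranges. The difference was -4.25 ± 0.47 for EC-like (adjusted p = 0.00019) and -8.41 ± 0.87 for macrophage-like sums (adjusted p = 0.00038), while the mural-like one of -1.64 ± 0.61 did not pass (adjusted p = 0.14). Lamb2, the beta chain of mature vessel walls, was at 55.6 to 934 CPM in ASC-like sums (median 165), 147, 257, 118, 77.5 and 53.4 in EC-like sums, 441 and 51.9 in mural-like sums and 2.3 and 3.54 in macrophage-like sums. All classes but the macrophage-like overlapped (macrophage-like difference -5.97 ± 1.08, adjusted p = 0.0057).

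Lamc1, the common gamma chain, was at 186 to 614 CPM in ASC-like sums (median 252), 46.1, 38.3, 50.5, 18.3 and 40.5 in EC-like sums, 94.7 and 13.1 in mural-like sums, and 5.68 and 7.94 in macrophage-like sums. ASC-like values lay above all others. The EC-like difference was -2.95 ± 0.52 (adjusted p = 0.0024) and the macrophage-like one -5.31 ± 0.90 (adjusted p = 0.0043). Lamc3 (adjusted p = 0.048) and Itgb3 (adjusted p = 0.035) were also called lower in macrophage-like than in ASC-like sums. Leaving out mouse 1 or mouse 5 raised the adjusted p to 0.31 and 0.21 for Lamc3 and to 0.16 and 0.22 for Itgb3. The Itgb3 call was also lost without mouse 2 (adjusted p = 0.05) or mouse 6/7 (adjusted p = 0.053). That of Lamc3 was also lost without mouse 6/7 (adjusted p = 0.075), without the mouse block (0.15), with the filter of 10 counts (0.061) and with each cell classed by its own markers (0.059). Lamc3 was at 34.9 and 27.1 CPM in mural-like sums, although in mouse 2 only 3 cells held its reads and 64.2% came from 1 of them. Lamb3 did not exceed 3.03 CPM in any sum.

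Expressed as shares of each chain type per kilobase of exon, the make-up of laminin RNA changed between classes. Lama2 and Lama4 together gave nearly all alpha chain RNA of ASC-like sums, with Lama4 at 28.8% (mouse 1) to 67.3% (mouse 3). Lama5 gave 56.6%, 57.8%, 71.3%, 62.3% and 66.7% of it in the EC-like sums of mice 1, 8, 2, 5 and 6/7, and 74.6% and 40.9% in the mural-like sums. It gave at most 0.265% in any ASC-like sum. Lamb2 gave 71.7% to 95.5% of beta chain RNA in EC-like sums. In ASC-like sums the Lamb2 share was 59.6%, 63.5% and 65.4% in males 1, 4 and 8 and 29.7%, 43%, 28.9% and 23.8% in females 2, 3, 5 and 6/7, so that the sexes did not overlap. The share is an RNA share and says nothing of assembled trimers.

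**Figure D2:**
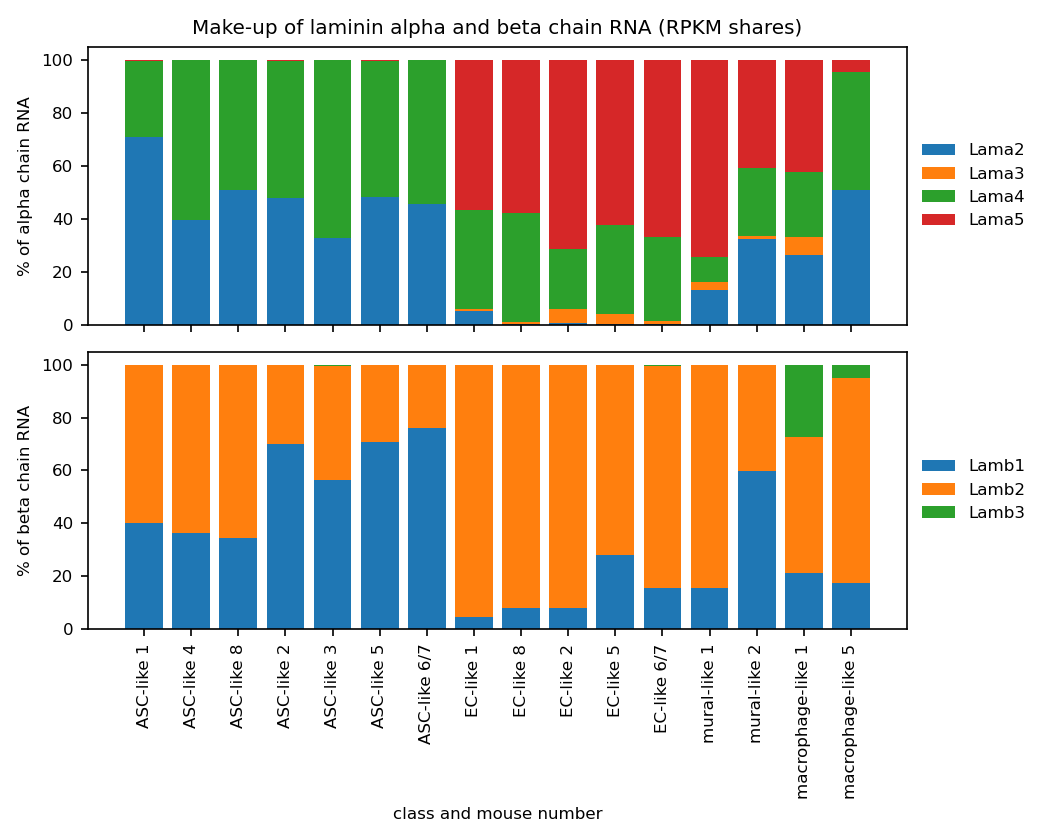
Share of each laminin chain in the alpha (top) and beta (bottom) chain RNA of each class sum, in percent of summed RPKM, 1 bar per mouse and class. Lama5 fills 56.6% to 71.3% of the alpha bars of EC-like sums and is barely visible in ASC-like sums, and Lamb2 takes more of the beta bars in ASC-like males 1, 4 and 8 than in females. The 2 macrophage-like bars rest on laminin totals of 14 and 14.1 CPM.

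The sequences upstream of members that divided ASC-like from vessel-wall cells are shown so that the 2 kinds can be set side by side. RefSeq promoter windows (GRCm38.p6) matched 22 of the 34 members, and those of Lama5 (chr2:180225860-180226109, minus strand), Itga1 (chr13:115101965-115102214, minus strand) and Itga11 (chr9:62677605-62677854, plus strand) are given as the 250 bases before the start, 5′ to 3′. Capitals mark the letters of any motif found. The last bases of the Itga11 window lie inside the gene as GENCODE draws it.
Lama5: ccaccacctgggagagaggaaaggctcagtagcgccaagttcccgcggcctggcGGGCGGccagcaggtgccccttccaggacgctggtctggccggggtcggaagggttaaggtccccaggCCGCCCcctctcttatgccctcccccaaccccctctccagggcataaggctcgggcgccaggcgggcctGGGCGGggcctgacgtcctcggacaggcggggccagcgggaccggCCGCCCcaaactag
Itga1: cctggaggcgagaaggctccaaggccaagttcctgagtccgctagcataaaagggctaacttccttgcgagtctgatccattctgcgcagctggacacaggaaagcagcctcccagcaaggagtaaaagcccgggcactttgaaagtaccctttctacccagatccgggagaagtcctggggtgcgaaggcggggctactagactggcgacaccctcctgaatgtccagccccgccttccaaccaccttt
Itga11: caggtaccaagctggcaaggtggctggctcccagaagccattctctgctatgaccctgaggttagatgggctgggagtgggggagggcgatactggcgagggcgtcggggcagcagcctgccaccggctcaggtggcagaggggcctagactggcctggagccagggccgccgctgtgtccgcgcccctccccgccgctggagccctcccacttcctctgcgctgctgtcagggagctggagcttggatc
Motifs were searched on both strands, and none contains another. The ETS motif, CCGGAAG, was present in 6.91% of 32851 windows of this length. The AP-1 motif, TGAGTCA, was in 4.46% of the windows. For the TEAD motif, GGAATG, the share was 12.6%. The GC box, GGGCGG, was found in 32.7%. A TATA box, written TATAAA, was found in 12.4%. The Lama5 window held 4 GC boxes and no other motif, and the Itga1 and Itga11 windows held none of the 5. The GC content was 72.4% for Lama5, 57.6% for Itga1 and 68.4% for Itga11, against a median of 52.4% over all windows. A match is a string of letters and not a binding site.

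EC reads moved with several of the mural-like values. Of the 101 mural-like cells, 55 held at least 10 reads of 5 EC genes (Pecam1, Ptprb, Cdh5, Tie1 and Cldn5), among them all 13 pericyte-like cells of mouse 2. In mouse 1, 13 pericyte-like and 29 VSMC-like cells held fewer. The following values are plain CPM of single sums with exact Poisson intervals, which cover counting error only, and no test between them was possible in 1 mouse. Itga6 was at 25.4 CPM (95% interval 23.4 to 27.6) in the 31 pericyte-like cells of mouse 1 with EC reads and at 0.419 (0.0507 to 1.51) in the 13 without. It was at 70.2 in mouse 2 and at 0.174 (0.0358 to 0.507) in the 29 VSMC-like cells without EC reads. Itga6 was high in the pericyte-like cells that also held EC reads, and the part of those reads in it was not tested. Itga1 was at 91.4 (87.5 to 95.4) and 93.4 (84.9 to 102) in the pericyte-like cells of mouse 1 with and without EC reads. It was at 433 (423 to 443) in those of mouse 2, and at 119 (109.9 to 128) with and 68.8 (64.9 to 72.8) without EC reads in VSMC-like cells. Without the cells that held EC reads, 1 mural-like sum was left, that of mouse 1. The log2 difference of Itga1 from ASC-like sums was then 4.27, with no replicate of the mural-like class. Itga7 was higher without EC reads, at 132 (122 to 142) against 39.3 (36.8 to 42.0). Lama5 was at 77.8 (74.2 to 81.5) with and 13.4 (10.3 to 17.1) without EC reads in pericyte-like cells, but at 266 (259 to 274) in VSMC-like cells without them. With the mural-like and ASC-like sums alone in the fit, no member was called between them (edgeR quasi-likelihood test).

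**Figure D3:**
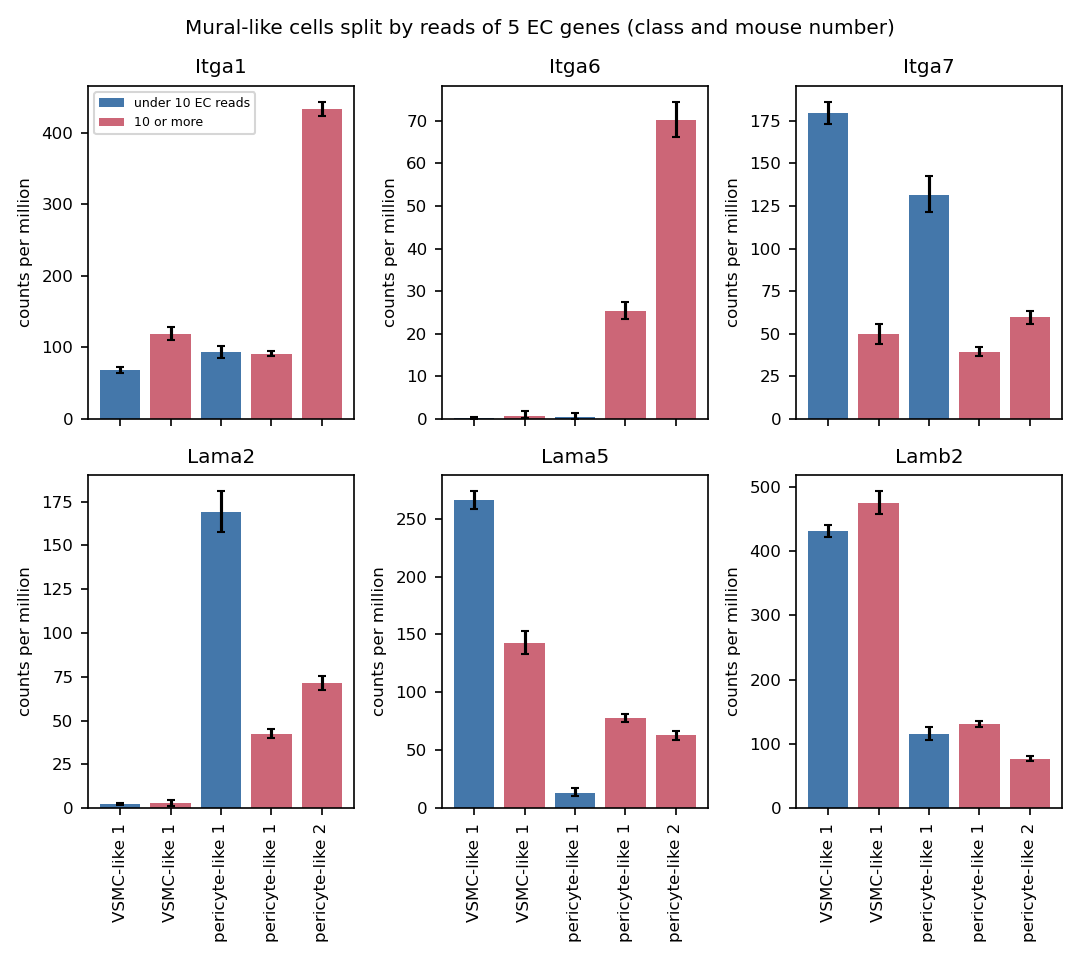
CPM of 6 members in VSMC-like and pericyte-like cells of mouse 1 and pericyte-like cells of mouse 2, split into cells with fewer than 10 (blue) or 10 or more (red) reads of 5 EC genes; bars show pooled reads and error bars the exact 95% Poisson interval. Itga6 is at or below 0.713 CPM in all but the pericyte-like cells with EC reads, while Lama5 and Itga7 are at 266 and 180 CPM in VSMC-like cells without them.

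Pericyte-like and VSMC-like cells of mouse 1 held different members. In the 38 VSMC-like cells Lamb2 was at 442 CPM (95% interval 433 to 451), Lama5 at 236 (230 to 242), Itga7 at 148 (143 to 153), Itga3 at 85.6 (81.8 to 89.5) and Itga8 at 47.8 (45 to 50.7). In the 44 pericyte-like cells the same genes were at 128 (124 to 132), 66.6 (63.6 to 69.8), 55.3 (52.6 to 58.2), 1.56 (1.13 to 2.1) and 0.833 (0.528 to 1.25). Reads of Itga8, the smooth muscle receptor for nephronectin, came from 20 of 38 VSMC-like cells. Lamb1 went the other way, at 146 (142 to 151) in pericyte-like and 3.36 (2.65 to 4.2) in VSMC-like cells, as did Lama2 at 64.4 (61.5 to 67.5) against 2.4 (1.81 to 3.13) and Lamc3 at 37.5 (35.2 to 39.8) against 1.97 (1.43 to 2.63). These are values of 1 mouse, with no replicate check. In the 13 pericyte-like cells of mouse 2 Lamb1 was at 186, Lama2 at 71.2, Lamc3 at 40.1, and Itga3 and Itga8 had no reads. The exact interval then allows up to 0.225 CPM, but it covers counting error only and not the spread between cells.

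Male and female ASC-like sums were then compared in a fit of 3 males and 4 females with its own TMM factors. Of 17 members tested, Lamb2 and Itga5 were higher in males and none was lower, where 1.55% of 11822 genes were called higher and 0.685% lower. Lamb2 was at 598, 433 and 934 CPM in males 1, 4 and 8 and at 108, 171, 66.5 and 57.3 in females 2, 3, 5 and 6/7. The lowest male lay above the highest female, with means of 655 ± 255 (SD, n = 3) and 101 ± 51.6 (SD, n = 4) and a log2 difference of 2.70 ± 0.44 (adjusted p = 0.014). The adjusted p was 0.052 without mouse 6/7 and 0.05 without mouse 8. Itga5 was at 141, 141 and 292 CPM in males and at 53.7, 90.2, 64.7 and 42.4 in females, again without overlap (1.61 ± 0.36, adjusted p = 0.048). Its call was lost without any one of mice 2, 4, 5, 6/7 or 8 (adjusted p 0.066 to 0.17) and with library totals in place of TMM factors (log2 difference 0.88, adjusted p = 0.26).

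Laminin chains had the next smallest p values. Lamc3 was at 17.4, 14.8 and 22.4 CPM in males and 0.844, 0.702, 2.15 and 0.00754 in females (4.33 ± 1.04, adjusted p = 0.062), although 49.5% of its reads in mouse 8 came from 1 of 161 cells. Lamc1 was at 471, 349 and 614 CPM in males and 216, 260, 196 and 228 in females (1.09 ± 0.28, adjusted p = 0.08). Of the 17 members tested, 6 had every male above every female, among them Itga5, Itga11, Lamb2, Lamc1 and Lamc3, and none had every female above every male, where 7.87% and 8.35% of all genes tested did so. Of the members below the filter, Itgae had every female above every male, at 0.0446 to 0.214 against 0.00677 to 0.0243 CPM. The scaling bears on all of these values: with library totals the median log2 difference over all genes fell from 0.04 to -0.60 and the calls over all genes went from 183 higher and 81 lower to 88 higher and 223 lower. Lamb2 was still called with library totals (1.91, adjusted p = 0.046). In EC-like sums the median over all genes went from 0.00 to -0.79.

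In EC-like sums none of the 10 members tested was called between 2 males and 3 females, nor was more than 0.0493% of 8120 genes called in either direction. By unadjusted p, 3 members and 7.51% of all genes were under 0.05, and DESeq2 called 1 and the likelihood ratio test 0. Itga5 had the smallest p, at 92.7 and 359 CPM in males 1 and 8 and 51.7, 56.3 and 23.8 in females 2, 5 and 6/7 (2.36 ± 0.65, adjusted p = 0.6). Lamb2 was at 159 and 275 against 124, 82.5 and 54.9 (1.31 ± 0.50, adjusted p = 0.65). Neither gene overlapped between the sexes, where 12.2% of the genes tested had every male above every female. When the sex difference itself was compared between EC-like and ASC-like sums in 5 mouse ids, 0.0% of 12207 genes were called in either direction and none of 18 members was called by the edgeR quasi-likelihood test, the only one run. Lamb2 was the 1 member with an unadjusted p under 0.05 (-2.03 ± 0.33, adjusted p = 0.54).

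**Figure D4:**
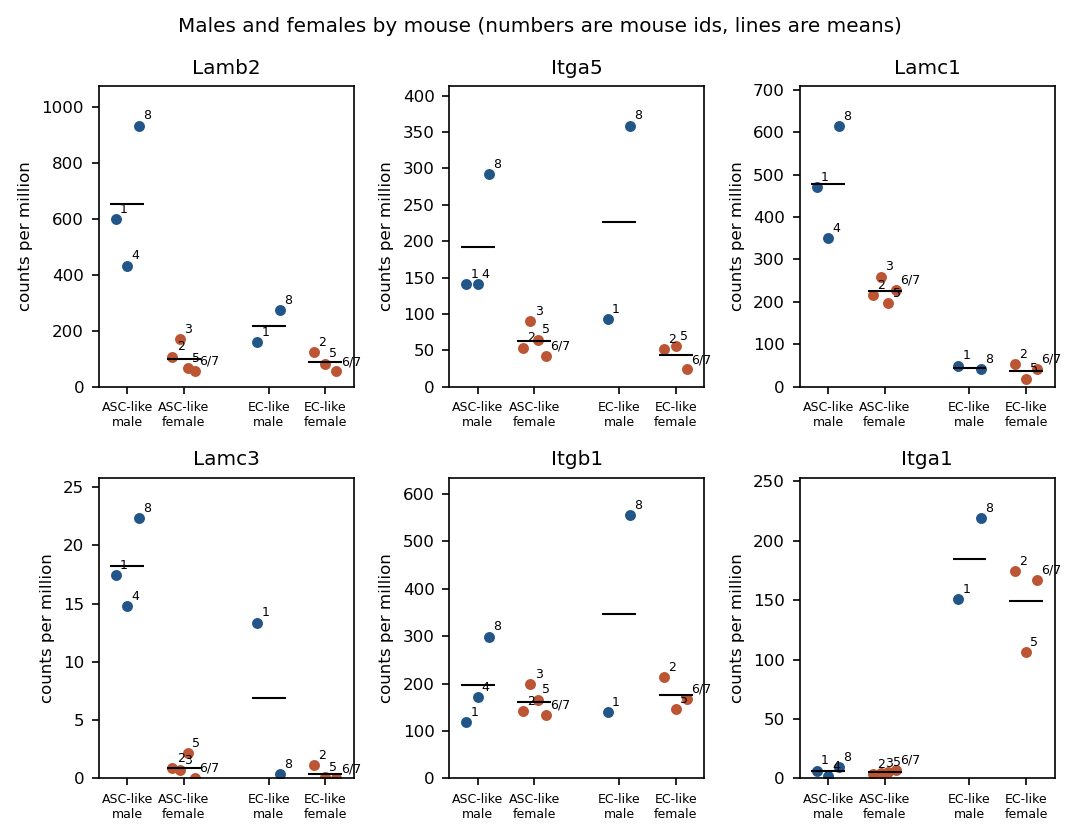
TMM-scaled CPM of 6 members in ASC-like and EC-like sums of males (blue) and females (orange), each point 1 mouse id with its number and each line the group mean. For Lamb2 and Itga5 every male lies above every female in both classes, and for Itgb1 mouse 8 stands above the other males (555 CPM against 140 in EC-like sums).

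Within ASC-like cells, 3 subtypes were taken from marker scores set within each mouse: ASC1a-like, ASC1b-like and ASC2-like. They are ranges of a score, and 353 of the 2251 cells (15.7%) lay near a boundary. Each cell took its highest score, so every mouse id was given cells of all 3 subtypes. Mouse 1 had 86 ASC1a-like cells, and males 4 and 8 had 119 and 46 ASC2-like cells. In the authors' clusters, mouse 1 had no cells in the male ASC1a cluster, and mice 4 and 8 few in the male ASC2 cluster. In these males the subtypes used here need not match those of the authors. Between ASC2-like and ASC1a-like sums of 7 mouse ids 2 of 17 members were higher and none lower, where 1.69% of 11156 genes were called higher and 1.59% lower. Itgb3 was at 1.15 to 12.8 CPM in ASC1a-like sums (median 6.22) and 10.6 to 31 in ASC2-like sums (median 12), higher in 7 of 7 mouse ids (1.86 ± 0.53, adjusted p = 0.031). Its ranges overlapped between subtypes, and the difference lies within mice. Its call was lost without the mouse block (adjusted p = 0.2) and without any one of mice 1, 2, 3 or 4 (adjusted p 0.05 to 0.081). Neither call held without the block, and leaving out 1 mouse id at a time kept 0 to 3 calls, with 0 without mouse 2 or mouse 3.

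Smaller shifts within mice passed the adjusted p but not the fold limit. Lama4 was higher in ASC2-like than ASC1a-like sums in 7 of 7 mouse ids (0.73 ± 0.10, adjusted p = 0.00014), with medians of 189 and 116 CPM. Itga11 was also higher in 7 of 7 (0.95 ± 0.19, adjusted p = 0.0026), with medians of 138 and 60.4, and Itgb5 in 7 of 7 (0.55 ± 0.15, adjusted p = 0.025). Lama2 was lower in 7 of 7 (-0.47 ± 0.10, adjusted p = 0.0041), so the 2 main alpha chains of ASC-like cells shifted in opposite directions. Between ASC1b-like and ASC1a-like sums no member was called by the edgeR quasi-likelihood test, DESeq2 or the likelihood ratio test, 5 of 17 had an unadjusted p under 0.05, as did 11.3% of all genes, and 0.332% of all genes were called in either direction. Lamb1 was lower in ASC1b-like sums in 7 of 7 mouse ids (-0.70 ± 0.13, adjusted p = 0.0093), with medians of 288 and 429 CPM. Lama2 was also lower in 7 of 7 (-0.41 ± 0.10, adjusted p = 0.051), and Lamb2 was higher in 7 of 7 (0.50 ± 0.12, adjusted p = 0.056).

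**Figure D5:**
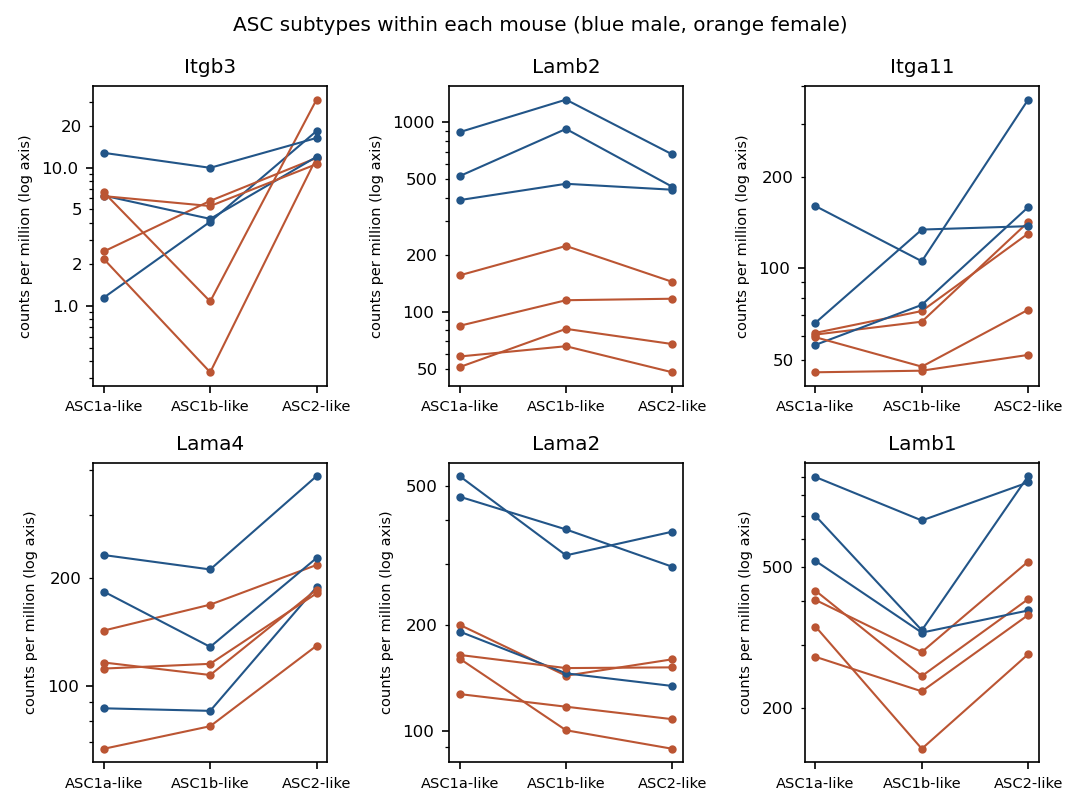
CPM on log axes of 6 members in ASC1a-like, ASC1b-like and ASC2-like sums, with 1 line per mouse id (blue male, orange female). Itgb3, Itga11 and Lama4 rise from ASC1a-like to ASC2-like in all 7 lines, and Lamb1 falls from ASC1a-like to ASC1b-like in all 7.

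The partners of the members were counted from 4 fixed lists. The shares of all genes called in each comparison, given above, apply to these counts too. Of 13 basement membrane partners of laminin, 12 were tested, and 7 were lower and none higher in EC-like than ASC-like sums (13.6% of all genes lower), among them Col4a5, a collagen IV chain (-11.42 ± 1.47, adjusted p = 0.00042). In macrophage-like sums 8 of the 12 were lower (9.08% of all genes), led by Col4a5 (-12.16 ± 2.45, adjusted p = 0.0097), and in mural-like sums 1 was lower (3.82% of all genes), Nid1 (-1.76 ± 0.45, adjusted p = 0.045). In male ASC-like sums 6 of the 12 were higher and none lower (1.55% and 0.685% of all genes), among them Col4a6 (4.14 ± 0.41, adjusted p = 0.0014), Col4a5 (3.36 ± 0.38, adjusted p = 0.002) and Ntn1 (2.58 ± 0.33, adjusted p = 0.0041). Their median log2 difference between the sexes was 2.01, beside 0.04 over all genes. In ASC2-like sums Col4a3 and Col4a4 were lower than in ASC1a-like sums, where 1.59% of all genes were.

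Laminin receptors outside the integrins, the adhesion machinery inside the cell and ligands of the other integrins were counted next. Bcam, which binds laminin alpha 5, was higher in EC-like (6.68 ± 0.48, adjusted p = 2.4e-05) and mural-like sums (6.74 ± 0.55, adjusted p = 0.00024) than in ASC-like sums. Of the 6 receptors on the first list 2 were higher and 4 lower in EC-like sums (8.19% and 13.6% of all genes), among the lower ones the syndecans Sdc4 (-7.45 ± 0.96, adjusted p = 0.00042) and Sdc2 (-7.07 ± 0.96, adjusted p = 0.00057). Against ASC-like sums 2 were higher in mural-like sums (4.31% of all genes), and 1 was higher and 2 lower in macrophage-like sums (5.96% and 9.08%). Of 21 tested members of the adhesion machinery 4 were higher and 1 lower in EC-like sums (8.19% and 13.6% of all genes). In mural-like sums 3 were higher (4.31% of all genes), and in macrophage-like sums 2 were higher and 7 lower (5.96% and 9.08%). In the last of these Fermt3, the kindlin of blood cells, was higher (8.38 ± 2.40, adjusted p = 0.044) and Fermt2, the kindlin of most other cells, lower (-5.36 ± 0.60, adjusted p = 0.00056). Of 11 tested ligands of the other integrins 3 were higher and 6 lower in EC-like sums (8.19% and 13.6% of all genes). Among them were Fn1, fibronectin, at -9.44 ± 0.44 (adjusted p = 4e-06), and Icam2, a beta 2 integrin ligand, at 10.83 ± 1.08 (adjusted p = 0.00011). Between ASC2-like and ASC1a-like sums 3 of 8 tested ligands were higher (1.69% of all genes), among them Fbn1, fibrillin, at 2.14 ± 0.12 (adjusted p = 1.3e-08), and 3 lower, among them Vtn, vitronectin, at -2.76 ± 0.18 (adjusted p = 6e-08). Against ASC-like sums 4 ligands were higher and 2 lower in mural-like sums (4.31% and 3.82% of all genes). In macrophage-like sums 1 was higher and 6 lower (5.96% and 9.08%).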

How the data were processed

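Deposited values were raw read counts per gene and cell, which the authors made by aligning 50-base Smart-seq2 reads to mm10 with STAR and quantifying with Salmon. Versions of these tools were not given in the sources used here. Whole-number counts held 23507 genes and 72 ERCC spike-ins (1.98% of reads), which were left out of totals and tests; 23461 genes matched GENCODE vM21. The members and lists were chosen with earlier results of these data known.

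Cells were clustered in Seurat 5.3.0 (3000 variable genes without the members, 14 components, resolution 1.1). A cluster took the class of its markers where at least 3 markers had reads in at least 25% of cells, and stayed unnamed where mitochondrial or adipocyte genes led it. No doublet caller was run. With the members included in clustering 3258 of 3261 cells kept their class, and by the markers of each cell 3049 (93.5%). Lists of mesothelial, T cell, B cell, Schwann, epithelial and adipocyte markers were also summed: in ASC-like sums they reached at most 117, 0.657, 0.309, 21.3, 7.51 and 1389 CPM, and in EC-like sums at most 2.08, 1.03, 1, 2.41, 2.75 and 2558.

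Counts were summed per mouse and class and tested with edgeR 4.0.16 (glmQLFit, glmQLFTest, two-sided, TMM factors, Benjamini-Hochberg over all genes tested). Class and subtype fits had the mouse as a block (16 class sums, 6 residual degrees of freedom). The block was used since sums of 1 mouse id come from the same animal, or for 1 id from the same 2 animals. Sex fits had 1 sum per mouse. Mouse ids are labelled, but the 2 animals that share 1 id cannot be told apart. In sex fits p values measure the spread between mouse ids. In class and subtype fits the block takes up differences between mouse ids. There p values measure how consistent the difference within a mouse id is, with the spread estimated over all classes or subtypes of the fit together. Members named with values per mouse were the 4 with the largest called differences in each direction of each class comparison, those called or with the 2 smallest p in sex and subtype comparisons, Itgb1, and the 3 with the highest RPKM per class. Other members and values given were chosen after their values were seen. Of the members, 1 is included in the counts but its values are not reported here. Alternatives were RLE factors, library totals, a filter of 10 counts, DESeq2 1.42.0, the likelihood ratio test, 20 cells per sum, leaving out each mouse, no block, 2 classes at a time and 2 other class assignments. Scripts were tested on simulated data. Python 3.11.15 with scipy 1.17.1 gave intervals and thinning.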

Additional observations from a re-analysis of the deposited data

Results flagged for a closer look

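Dixon's criterion marked a mouse whose gap to its neighbour took an unusually large part of the group's range. In groups of 4 to 7 mice it did so in 19 of 97 groups of values tested. Its limits mark about 1 in 20 by chance only for normally distributed values, and they were applied to CPM without logs. The chance rate here is therefore not known, and every mark lay at the high end of its group. The subtype sums come from the same cells as the ASC-like sums, so these marks are not independent. Mouse 8, a male, was high for Itga5 at 292 CPM in ASC-like, 268 in ASC1b-like, 354 in ASC2-like and 336 in EC-like sums, and for Itgb1 at 299, 324, 313 and 519 CPM in the same sums. It was also high for Lamb1 in ASC1b-like sums (678 CPM), for Itga1 in ASC2-like sums (10.5 CPM) and for Lama4 in ASC2-like sums (384 CPM). In the same mouse the 5 ASC markers summed to 48349 CPM, against 14074 to 22927 in the other 6, and its part in these values was not tested. Mouse 1 was high for Itga11 at 203 CPM in ASC-like, 161 in ASC1a-like and 361 in ASC2-like sums. Mouse 3 was high among females for Itga7 (3.47 CPM) and Itgb5 (86.8 CPM) in ASC-like sums and for Itga7 in ASC1a-like sums (6.06 CPM). Mouse 4 was high for Itga7 in ASC2-like sums (7.70 CPM) and mouse 5 for Itgb3 in ASC2-like sums (31 CPM).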

How the results depend on the processing

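The count of called members between EC-like and ASC-like sums stayed between 10 and 16 under every alternative. Mice 3 and 4 had only an ASC-like sum. Leaving either out could change the counts between classes only through the filter, the scaling or the estimate of spread. Between mural-like and ASC-like sums it was 5 as reported, 13 with DESeq2, 11 with the likelihood ratio test, 9 with no replicate block, 0 with only the 2 classes in the fit, 2 with classes from the markers of each cell, 3 without mural-like cells with EC reads, and 3 to 5 with each mouse left out. Between mural-like and EC-like sums it was 1 as reported and 7, 5, 4 and 0 under the first 4 of these, 2 without cells with EC reads, 3 with pericyte-like cells alone, and 1 to 2 with each mouse left out; with classes from the markers of each cell it stayed 1, but the member was Lama2 in place of Itga7. The count between macrophage-like and ASC-like sums, 12 as reported, was 4 to 12 with each mouse left out, 6 without mouse 1 and 4 without mouse 5, where Itgam and Itga4 no longer passed the filter. For male against female ASC-like sums it was 1 with the filter of 10 counts and 0 to 2 with each mouse left out. For male against female EC-like sums it was 1 with DESeq2. There the count also rose without mouse 1, which leaves mouse 8 as the only male. Between ASC2-like and ASC1a-like sums it was 1 with the filter of 10 counts, 0 with no replicate block and 0 to 3 with each mouse left out. The 1 reversed difference was that of Itga6 between mural-like and ASC-like sums without cells with EC reads (-0.52), where 1 mural-like sum is left and is assumed to vary like the others. Of the single members' values under the alternatives, 2403 kept their side of the threshold, 75 came to pass it and 54 fell below it; the causes were not tested. The mouse block changed no other call count beyond 1.5 times. The mural-like and macrophage-like classes rest on 2 mice each, which limits both.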

Other observations

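Members were also read in cells outside the 4 classes. A cluster of 19 cells, all from mouse 1 and led by Adgrg2, Krt8 and Lcn2, carried epithelial markers and stayed unnamed for its mitochondrial share. Its pooled reads held Lama5 at 103 CPM (95% Poisson interval 97.2 to 109.6) and Lamb1 at 108. In the 22 lymphatic EC-like cells Lamb1 was at 161 CPM with reads in 18 cells, and Lama4 at 70.2 with reads in 15. Itga9, known for its part in lymphatic valves, was at 49.7 CPM in them, with 76.4% of its reads from 1 cell, and Lama5 at 11.8, with 96.9% from 1 cell. No replicate check was possible for either group.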
